A study of Homo sapiens with 6 samples.

Results

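The miRNAs described here are the 4 mature arms of a pair of neighbouring hairpins, hsa-miR-222-3p, hsa-miR-222-5p, hsa-miR-221-3p and hsa-miR-221-5p. They were taken by name from a table of 787 mature miRNAs, and all 4 passed the filter on low values (637 of 787 did). The table covers 6 small RNA libraries of A549, an established human lung adenocarcinoma cell line with epithelial features. In 3 libraries the cells had received the empty expression plasmid pcDNA4, and in the other 3 pcDNA4 carrying SMARCA4 (BRG1). This protein, which A549 cells lack, is an ATPase of SWI/SNF, a complex that moves nucleosomes. RNA was collected 48 h after lipid transfection, so every group went through the same delivery. The series title names miR-222 as a tumor suppressor under SWI/SNF control. The labels give no transfection efficiency. Levels of SMARCA4 itself were not analysed here, so nothing in these values checks the group labels. The design text calls the 3 libraries of a group independent biological replicates.

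A miRNA gene is transcribed as a long primary RNA, cut to a hairpin in the nucleus by Drosha and then by Dicer to a short duplex. One strand, from the 5′ side (5p) or the 3′ side (3p) of the hairpin, is preferentially loaded into Argonaute, and the other is usually degraded. The loaded strand finds its mRNA targets mainly through the seed, bases 2 to 8. miR-221 and miR-222 come from 1 primary transcript in many cells, and the 3p arms are known for repressing the cell cycle inhibitors CDKN1B (p27) and CDKN1C (p57) and the receptor KIT. They have been described as growth-promoting in many carcinomas and as growth-restraining in some other settings.

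The RefSeq tables (GRCh38.p14) held mature sequences for 3 of the 4 arms. They are shown because the seeds decide which arms can act on the same targets. Capitals mark the seed, and each runs 5′ to 3′.
miR-222-3p: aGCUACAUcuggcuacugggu
miR-221-3p: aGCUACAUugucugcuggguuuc
miR-222-5p: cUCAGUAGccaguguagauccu
Both 3p arms had the same seed, GCUACAU, which pairs with the site AUGUAGC in an mRNA. Their first 8 bases were identical. All 10 differences among the 21 positions compared without gaps lay beyond them, and the whole sequences were 6 edits apart when gaps were allowed. Full-length reads of the 3p arms thus differ in sequence, and how the authors' counting treated shorter reads is not given. Of the 2370 mature miRNA names in the RefSeq table, no other one carried this seed, so among the 689 listed miRNAs that matched this table the seed came from these 2 arms alone. The seed of miR-222-5p, UCAGUAG (site CUACUGA), was shared with 0 other names.

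On chromosome X (GRCh38) the hairpins are neighbours, transcribed from the minus strand, and RefSeq and GENCODE 29 gave the same positions. The hairpin sequences are shown with the mature arms held in RefSeq in capitals, because the results below turn on the balance between arms of 1 hairpin.
MIR222 (chrX:45747015-45747124): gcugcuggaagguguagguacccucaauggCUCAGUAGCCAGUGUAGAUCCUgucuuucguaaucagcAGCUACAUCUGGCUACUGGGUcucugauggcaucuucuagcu
MIR221 (chrX:45746157-45746266): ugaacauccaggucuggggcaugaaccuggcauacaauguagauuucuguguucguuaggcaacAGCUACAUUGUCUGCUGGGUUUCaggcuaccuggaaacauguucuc
Each hairpin is 110 bases long. In MIR222 the 5p arm takes bases 31 to 52 and the 3p arm bases 69 to 89, with 16 bases of loop between them. In MIR221 the 3p arm takes bases 65 to 87. Transcription reaches MIR222 first, and 748 bases lie between it and MIR221. The host gene, the long non-coding RNA MIR222HG, runs from 45770274 down to 45745211. Of its 2 annotated transcripts, 1 holds both hairpins in its intron, with MIR222 starting 23150 bases from the transcript's start. The other ends before both.

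Reads assigned to listed miRNAs, recovered from the deposited values, ranged from 701885 to 1079944 in 5 libraries and reached 7274329 in SMARCA4 replicate 2. That library also stood apart in composition. The 9 let-7 and miR-98 5p arms made up 20.9% of its total against 6.54% to 7.78% in the other 5. Values without it are given where it moved a result; those for miRNAs other than the 4 arms were added after seeing the data. Of 7 epithelial marker miRNAs 6 were listed, without miR-205-5p, and their summed level was 356 to 677 normalized counts in empty vector and 425 to 623 in SMARCA4 libraries. In the empty vector libraries the sum was mostly miR-200b-3p, and in the SMARCA4 libraries it was not. There miR-141-3p exceeded miR-200b-3p in replicates 1 and 2 but not in replicate 3. The log2 fold change of miR-200b-3p, −1.14, missed the threshold (limma adjusted p = 0.109). Both miR-141-3p and miR-203a-3p rose (2.55 and 2.83, limma adjusted p = 0.0124 for both). These epithelial members were named after their values were seen, and miR-200a-3p, miR-200c-3p and miR-429 did not pass. Of 7 blood markers 3 were listed, with miR-142-3p, miR-223-3p, miR-451a and miR-144-3p absent from the list. Their sum was 5621 to 7213 and 7962 to 14458, almost all of it miR-486-5p. The 2 endothelial markers summed to 746 to 1490 and 1200 to 1401. Of 3 muscle markers miR-1-3p and miR-133a-3p were listed at 0 in every library, and the liver marker miR-122-5p was not listed. Of 2 neuron markers miR-9-5p alone was listed, at 140 to 146 and 146 to 427. The part of these markers in the results below was not tested. RNA from a whole culture cannot tell fewer producing cells from less RNA per cell.

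SMARCA4 libraries held less of both miR-222 arms, and the miR-221 arms pointed in opposite directions without passing the test. Values are normalized read counts as deposited, and changes are log2 fold changes of SMARCA4 minus empty vector from limma on log2(value + 1), with p-values adjusted over all 637 miRNAs tested. Of the 4 arms 2 were called, both lower, where the background was 1.41% of all miRNAs tested in either direction and 0.471% in the falling direction.

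miR-222-3p, the guide arm of its hairpin, was at 22578, 20414 and 24187 normalized counts in empty vector replicates 1, 2 and 3 and at 7057, 8485 and 7182 in SMARCA4 replicates 1, 2 and 3. The groups were far apart, with the lowest empty vector library 2.41 times the highest SMARCA4 library. The mean fell 2.96-fold, from 22393 ± 1893 to 7575 ± 791 (SD, n = 3 each), a log2 fold change of −1.57 (SE 0.24, limma adjusted p = 0.0124). In place among all listed miRNAs it went from 14th to 16th in the empty vector libraries to 33rd to 38th in the SMARCA4 libraries. Spread between replicates was 8.45% of the mean in the first group and 10.4% in the second. Counting error was smaller still: the 2699 reads of SMARCA4 replicate 1, the fewest, gave an exact 95% Poisson interval of 6793 to 7328 normalized counts.

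miR-222-5p, the scarce partner strand, was at 234, 251 and 309 normalized counts in the empty vector libraries and at 60.1, 47.7 and 42.5 in the SMARCA4 libraries. Again no library of one group reached the other, and the lowest empty vector value was 3.89 times the highest SMARCA4 value. The mean fell 5.28-fold, from 265 ± 39.4 to 50.1 ± 9.06 (SD, n = 3 each), a log2 fold change of −2.38 (SE 0.32, limma adjusted p = 0.0119). These values rest on few reads. SMARCA4 replicates 1 and 3 held 23 and 18 reads, with exact 95% Poisson intervals of 38.1 to 90.2 and 25.2 to 67.2 normalized counts. SMARCA4 replicate 2, with 113 reads, gave 39.3 to 57.4, which lies inside both, and the lowest bound in the empty vector libraries was 194.

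**Figure D1:**
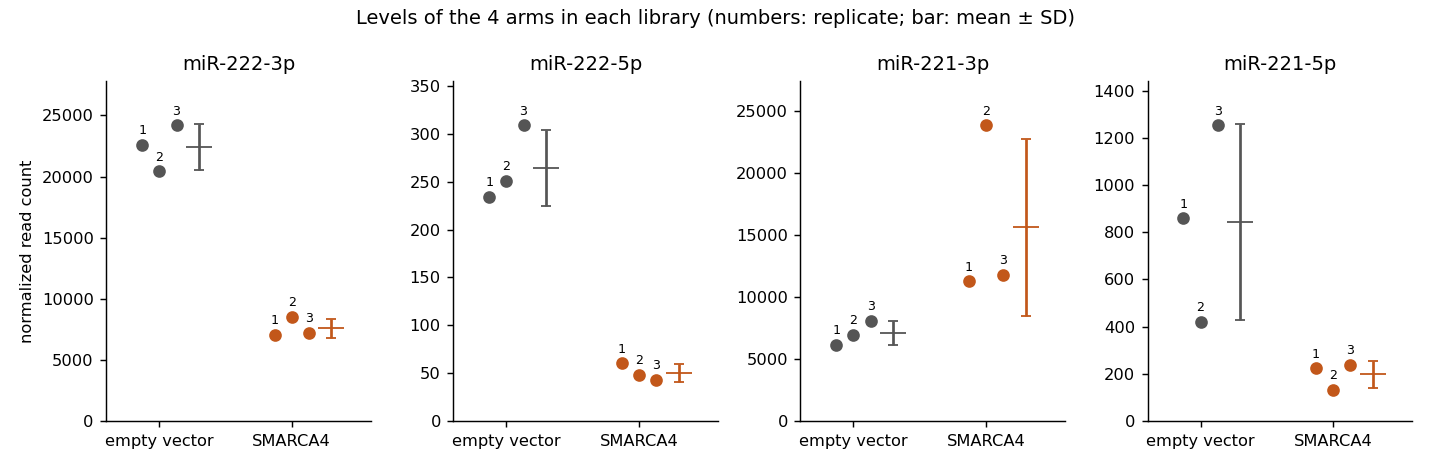
Normalized read count (vertical axis, from 0, a separate scale for each arm) of the 4 arms in the 3 empty vector and 3 SMARCA4 libraries, with points numbered by replicate and a bar for mean ± SD. The groups do not overlap for any arm, and SMARCA4 replicate 2 sits apart from the other SMARCA4 libraries for miR-221-3p (23804 against 11235 and 11739).

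miR-221-3p, the guide arm of the neighbouring hairpin with the same seed as miR-222-3p, was at 6141, 6947 and 8077 normalized counts in the empty vector libraries and at 11235, 23804 and 11739 in the SMARCA4 libraries. Every SMARCA4 library was above every empty vector library, by at least 1.39 times, but SMARCA4 replicate 2 was at more than the sum of the other SMARCA4 libraries. The means were 7055 ± 973 and 15593 ± 7115 (SD, n = 3 each), and the log2 fold change of 1.06 (SE 0.34) did not pass (limma adjusted p = 0.110). Without SMARCA4 replicate 2 the log2 fold change was 0.71 (limma adjusted p = 0.0649), and the arm passed with array weights (0.82, adjusted p = 0.0402) and with DESeq2 (1.12, adjusted p = 0.0389). As a share of a library's reads, SMARCA4 replicate 2 stood out less: the arm took 0.370%, 0.391% and 0.457% of the reads in the empty vector libraries and 0.612%, 0.775% and 0.648% in the SMARCA4 libraries.

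miR-221-5p, the less abundant arm of that hairpin, was at 858, 418 and 1253 normalized counts in the empty vector libraries and at 222, 132 and 238 in the SMARCA4 libraries. The empty vector libraries were uneven, with an SD of 49.5% of their mean and replicate 2 the lowest, yet all 3 were above all SMARCA4 libraries. The means were 843 ± 417 and 198 ± 57.2 (SD, n = 3 each), and the log2 fold change of −2.0 (SE 0.44) did not pass (limma adjusted p = 0.0656). It passed without empty vector replicate 2 (limma adjusted p = 0.0249) and without SMARCA4 replicate 2 (0.0462), with array weights (0.00389) and with DESeq2 (4.94e-04).

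The groups did not overlap for any of the 4 arms, but they also did not overlap for 31.1% of all miRNAs tested. The exact two-sided permutation p over libraries was 0.1 for each arm, the smallest that 3 against 3 libraries can give. By size of change, miR-222-5p was the 8th lowest of the 637 log2 fold changes, miR-221-5p the 19th lowest and miR-222-3p the 48th lowest, and miR-221-3p was the 87th highest. By unadjusted limma p-value, miR-222-5p ranked 2nd, miR-222-3p 5th, miR-221-5p 12th and miR-221-3p 65th. The median over all miRNAs tested was −0.05.

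The miR-222 calls did not hold in most smaller sets of libraries. They were lost when replicate 1 or 3 of either group was left out, where the limma adjusted p was 0.0853 to 0.103 for miR-222-3p and 0.0508 to 0.0853 for miR-222-5p, and kept without either replicate 2. That of miR-222-3p was also lost without the mean-variance trend (adjusted p = 0.0695). The number of calls over all miRNAs moved with them, from 9 to 0 and 2 without empty vector replicates 1 and 3, to 0 and 1 without SMARCA4 replicates 1 and 3, and to 41 without SMARCA4 replicate 2.

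**Figure D2:**
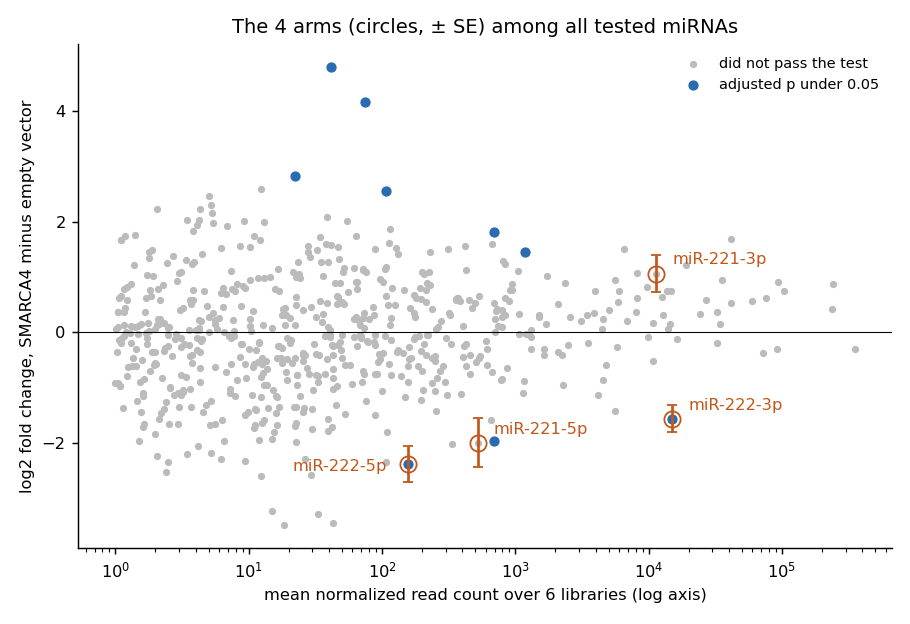
Each point is 1 of the 637 tested miRNAs, with the mean normalized read count over 6 libraries on the horizontal log axis and the log2 fold change (SMARCA4 minus empty vector) on the vertical axis, circles with SE bars marking the 4 arms and larger blue points the 9 with adjusted p under 0.05. miR-222-3p and miR-222-5p are blue and below 0, miR-221-5p is below 0 and miR-221-3p above 0, both grey.

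Ordered by mean level, the 4 arms in both groups gave 8 levels. The highest was miR-222-3p in empty vector cells, followed by miR-221-3p in SMARCA4 cells, and the ranges of these overlapped (20414 to 24187 and 11235 to 23804). Next came miR-222-3p in SMARCA4 cells and miR-221-3p in empty vector cells, which also overlapped (7057 to 8485 and 6141 to 8077). miR-221-5p in empty vector cells came after these and overlapped no neighbour. miR-222-5p in empty vector cells and miR-221-5p in SMARCA4 cells overlapped (234 to 309 and 132 to 238), and miR-222-5p in SMARCA4 cells was lowest and clear of the rest. Levels of different miRNAs also reflect how well adapters ligate to each end, so this order is one of read counts and not of molecules.

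The ratio of a hairpin's arms within a library is free of the library's scaling, and that of miR-221 changed. The 3p arm outnumbered the 5p arm 7.16, 16.6 and 6.45 times in the empty vector libraries and 50.6, 180 and 49.2 times in the SMARCA4 libraries. The lowest SMARCA4 ratio was well above the highest empty vector ratio, and SMARCA4 replicate 2 was again the extreme. In terms of reads from both arms, miR-221-5p made up 12.3%, 5.68% and 13.4% in empty vector cells and 1.94%, 0.552% and 1.99% in SMARCA4 cells. The exact 95% Clopper-Pearson intervals were 11.2% to 13.4%, 4.97% to 6.46% and 12.6% to 14.3% in the first group and 1.55% to 2.39%, 0.493% to 0.617% and 1.62% to 2.41% in the second, and they cover counting error only.

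Tested with limma over the 155 hairpin names with both arms measured, the log2 ratio of miR-221-3p to miR-221-5p rose by 3.06 (SE 0.59, adjusted p = 0.0253, n = 3 libraries each), which is 8.36-fold in the ratio of geometric means. It was the highest of the 155 changes. Of all pairs 7.1% were called, 5 higher and 6 lower. The ratios of the groups did not overlap for 32.3% of pairs, both hairpins of this cluster among them. The change was 2.44 without SMARCA4 replicate 2 (adjusted p = 0.0159) and 3.49 without empty vector replicate 2 (adjusted p = 0.0113). The call was lost with 1 of 3 libraries left out. The change was then 2.88 without empty vector replicate 1 (adjusted p = 0.0786), 2.81 without replicate 3 of that group (0.0887) and 3.38 without SMARCA4 replicate 3 (0.0606). Without each of those 3 libraries the number of pairs called was 1.

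In miR-222 the arms fell by amounts that the test did not separate. The 3p arm outnumbered the 5p arm 96.6, 81.3 and 78.3 times in the empty vector libraries and 117, 178 and 169 times in the SMARCA4 libraries. All 3 SMARCA4 ratios were higher, but the log2 ratio changed by 0.82 (SE 0.39), with an adjusted p of 0.224 by limma (0.71 and 0.167 without SMARCA4 replicate 2). The 5p share of this hairpin's reads was 1.02%, 1.21% and 1.26% and then 0.845%, 0.559% and 0.588%. In SMARCA4 replicate 1, where it rests on 23 reads, the 95% Clopper-Pearson interval of 0.536% to 1.27% spans the empty vector shares of replicates 1, 2 and 3.

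**Figure D3:**
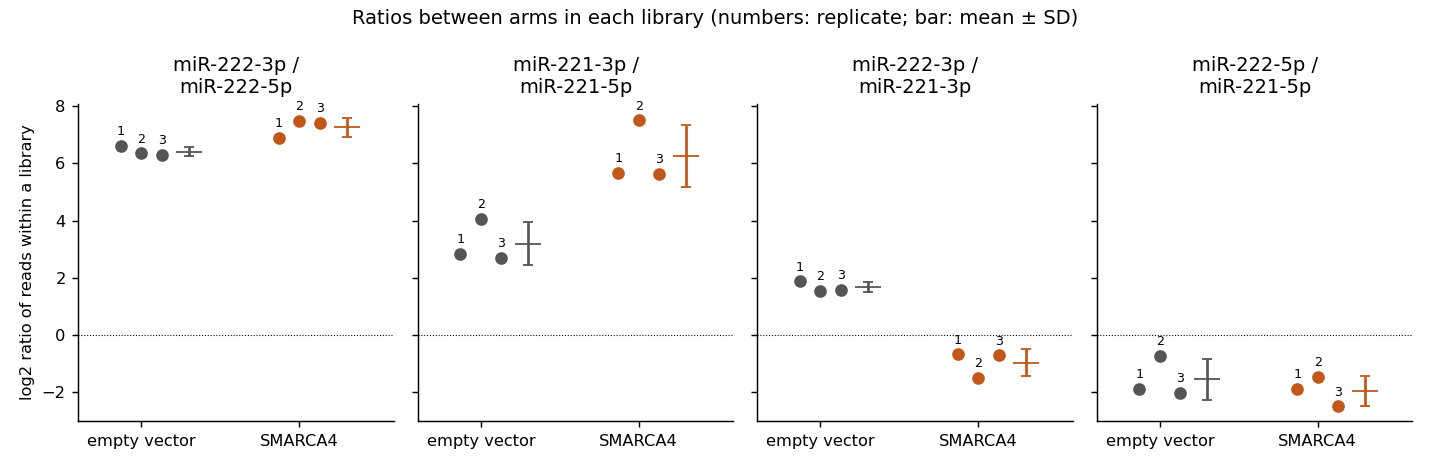
log2 ratio of reads within each library (vertical axis, 0 means equal reads) for the 2 ratios of 3p to 5p arm and the 2 ratios of miR-222 to miR-221, with points numbered by replicate and a bar for mean ± SD. The miR-222-3p/miR-221-3p ratio is above 0 in all 3 empty vector libraries and below 0 in all 3 SMARCA4 libraries, while the miR-222-5p/miR-221-5p ratios of both groups overlap.

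**Figure D4:**
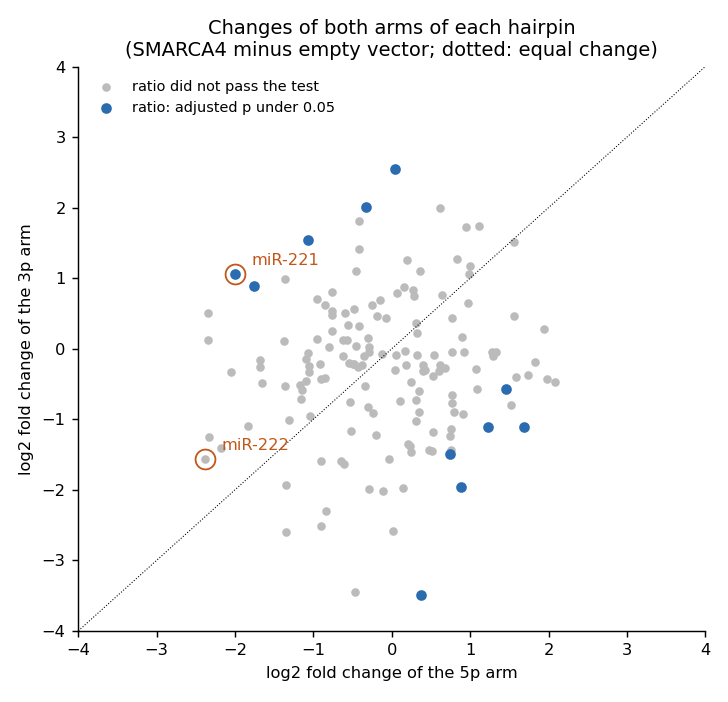
Each point is 1 of 155 hairpin names, with the log2 fold change of its 5p arm on the horizontal axis and that of its 3p arm on the vertical axis, the dotted line marking equal change and blue the 11 pairs whose ratio passed the test. miR-221 lies to the upper left of the line (5p −2.0, 3p 1.06) and miR-222 in the lower left near it (5p −2.38, 3p −1.57).

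Other hairpin names, whose arms were paired by name, show such changes elsewhere in the same libraries. The ratio of miR-181a, a regulator of lymphocyte signalling, moved the other way, by −2.80 (SE 0.32, limma adjusted p = 0.00124). The 3p arm was at 537 ± 190 against 242 ± 55.5 and the 5p arm at 20264 ± 9985 against 63130 ± 23020 (SD, n = 3 each). A further 3p arm, miR-181a-2-3p, was listed separately and left out of this pair (log2 fold change −0.86, limma adjusted p = 0.201). The miR-181a ratio is therefore not that of a single hairpin. That of miR-191 changed by −3.86 (SE 0.69, limma adjusted p = 0.0220) and that of let-7c by −2.84 (SE 0.71, limma adjusted p = 0.0423). Both rest on a rare 3p arm, with 56 and 19 reads of miR-191-3p and 5 and 0 reads of let-7c-3p over the empty vector and SMARCA4 libraries, so the size of these changes depends on the 1 added before taking logs. Without SMARCA4 replicate 2 the let-7c call was lost (−2.14, limma adjusted p = 0.0586), and those of miR-181a and miR-191 held (−2.70 and −4.47). The 5p and 3p changes had opposite signs in 85 of the 155 pairs, so opposite signs as such were common.

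Between the hairpins, the balance of the 3p arms turned over. miR-222-3p had 3.68, 2.94 and 2.99 times the reads of miR-221-3p in empty vector cells, and miR-221-3p had 1.59, 2.81 and 1.63 times the reads of miR-222-3p in SMARCA4 cells. No library went against its group. The mean log2 ratio went from 1.67 ± 0.18 to −0.96 ± 0.46 (SD, n = 3 each), a change of −2.63, or 6.18-fold, with an exact two-sided permutation p of 0.1, the smallest possible here. Without SMARCA4 replicate 2 the change was −2.36.

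The 5p arms kept no such difference. miR-221-5p had 3.67, 1.67 and 4.05 times the reads of miR-222-5p in empty vector cells and 3.70, 2.77 and 5.61 times in SMARCA4 cells, and the groups overlapped. The log2 ratio of miR-222-5p to miR-221-5p went from −1.54 ± 0.70 to −1.95 ± 0.51 (SD, n = 3 each; exact two-sided permutation p = 0.6). Without empty vector replicate 2, the library with the lowest miR-221-5p, the change was 0.017. Of the 4 arms, miR-221-3p alone had a positive log2 fold change, under every scaling and with every library left out in turn.

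Because the 3p arms share their seed, their sum gives the reads of that seed from this locus. It is a sum of reads and not of molecules, since adapters may ligate unequally to the 2 arms. On the deposited scale it was 28719, 27361 and 32264 normalized counts in empty vector cells and 18293, 32289 and 18922 in SMARCA4 cells, with overlap, since SMARCA4 replicate 2 was as high as the highest empty vector library. The means were 29448 ± 2532 and 23168 ± 7906 (SD, n = 3 each). As a share of the library's reads the sum was 1.73%, 1.54% and 1.83% against 0.997%, 1.05% and 1.04%, without overlap, and the 3 SMARCA4 libraries were alike. The fall in the summed reads was therefore 1.27-fold on one scale and 1.65-fold on the other, both smaller than the 2.96-fold fall of miR-222-3p. The arms had changes of opposite sign, so these reads do not give the size or direction of a change in molecules. miR-222-3p supplied 78.6%, 74.6% and 75.0% of the seed's reads in empty vector cells and 38.6%, 26.3% and 38.0% in SMARCA4 cells. Without SMARCA4 replicate 2 the log2 change on the deposited scale was −0.66 in place of −0.39. No test was made of the sum.

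**Figure D5:**
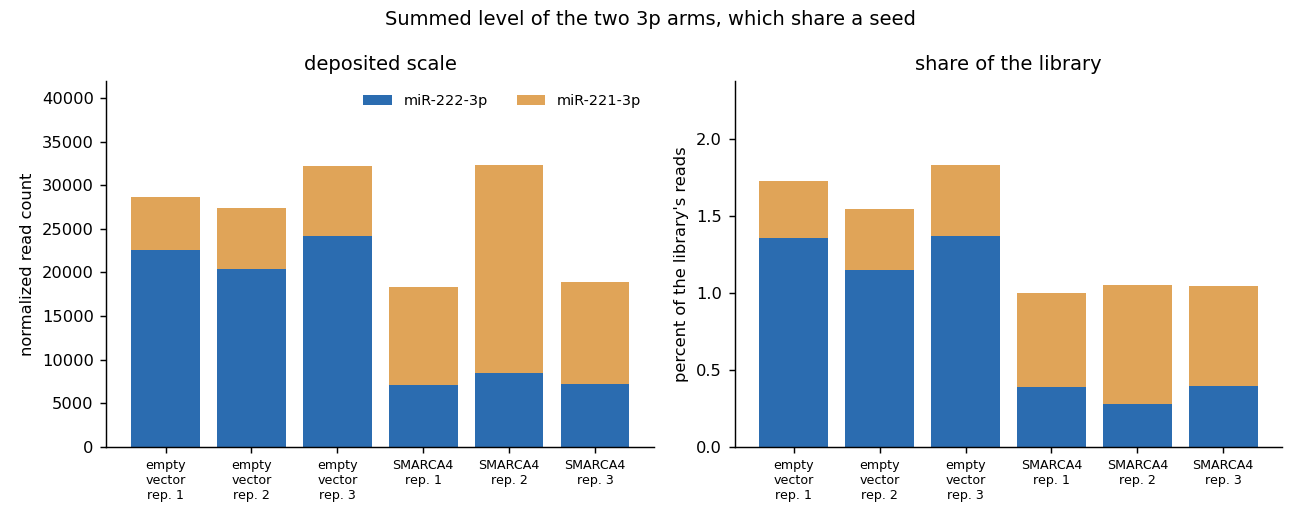
Stacked bars, from 0, of miR-222-3p (blue) and miR-221-3p (orange) in each library, as normalized read counts on the left and as percent of the library's reads on the right. The blue part is the larger one in all empty vector libraries and the smaller one in all SMARCA4 libraries, and the total of SMARCA4 replicate 2 is 32289 on the left but 1.05% on the right.

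Some miRNAs followed the 4 arms closely over the 6 libraries. Likeness was measured as Pearson's r of log2(value + 1) among 421 miRNAs with a mean of at least 10, as a description of libraries that share scaling and the group difference. miR-222-3p was most like miR-222-5p (r = 0.980), miR-340-3p (r = 0.976) and miR-654-3p (r = 0.973), a member of the large imprinted cluster at 14q32, and least like miR-6840-5p (r = −0.989). miR-222-5p was most like miR-411-3p (r = 0.982), also of that cluster, its own 3p arm and miR-1296-5p (r = 0.979), and least like the epithelial miR-203a-3p (r = −0.983). miR-221-3p was most like miR-25-3p (r = 0.994), miR-182-5p (r = 0.987) and miR-3195 (r = 0.985), and least like miR-4455 (r = −0.979). miR-221-5p was most like miR-200b-3p (r = 0.986), miR-148b-5p (r = 0.978) and miR-17-5p (r = 0.975), and least like miR-449c-5p (r = −0.994). Among the arms themselves, r was 0.885 between miR-222-3p and miR-221-5p but −0.748 between both 3p arms and −0.822 between both arms of miR-221. Over the 5 libraries without SMARCA4 replicate 2, these were 0.903, −0.920 and −0.736, and miR-221-3p had r = 0.996 with miR-25-3p, 0.965 with miR-182-5p, 0.963 with miR-3195 and −0.922 with miR-4455.

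miR-25-3p, of the miR-106b-25 cluster, did not pass the test, at 6824 ± 502 against 12737 ± 5357 (SD, n = 3 each), with a log2 fold change of 0.83 (limma adjusted p = 0.170), or 0.50 without SMARCA4 replicate 2 (adjusted p = 0.12). miR-654-3p fell, from 1101 ± 357 to 271 ± 38.7 (SD, n = 3 each), by a log2 fold change of −1.97 (limma adjusted p = 0.0128). miR-340-3p, at 35 ± 6.59 against 10.6 ± 2.43, did not pass (SD, n = 3 each), with a log2 fold change of −1.64 (limma adjusted p = 0.0830).

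The 4 other miRNAs described as responsive to the receptors EGFR and MET in lung cancer cells showed no common direction, with 2 higher and 2 lower. Of these, 1 was called, upward, beside 1.41% of all miRNAs tested, and the groups did not overlap for 3, beside 31.1%. The median log2 fold change was −0.44. miR-203a-3p rose from 4.79 ± 0.972 to 39.7 ± 2.97, while miR-30c-5p, at 8038 ± 1287 against 3112 ± 1050, and miR-30b-5p, at 1555 ± 628 against 742 ± 296, had lower values that did not pass (SD, n = 3 each; limma adjusted p = 0.0124, 0.0656 and 0.158). The empty vector values of miR-203a-3p, 3.77, 5.71 and 4.91, were no higher than the value of 3 reads (5.66, 5.71 and 4.91). miR-103a-3p had a log2 fold change of 0.21 (limma adjusted p = 0.723), and −0.06 without SMARCA4 replicate 2. Without that library miR-30c-5p passed (−1.10, limma adjusted p = 0.0186).

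Of 4 other miRNAs reported to repress CDKN1B, the p27 inhibitor that both 3p arms target, 0 were called, which says little of 4 miRNAs where 1.41% of all tested were called. Of the 4, 3 had positive values, beside 308 of all 637 miRNAs tested. The groups did not overlap for 2, beside 31.1% of all miRNAs tested. The 4 had a median log2 fold change of 1.09, against −0.05 for all miRNAs tested. The most abundant, miR-181a-5p and miR-24-3p, had log2 fold changes of 1.69 (limma adjusted p = 0.0656) and 0.88 (limma adjusted p = 0.232). Without SMARCA4 replicate 2, miR-181a-5p passed (1.40, limma adjusted p = 0.0462).

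Of 51 other listed miRNAs encoded only on chromosome X, 40 were tested, of which 1 was called, beside 1.41% of all miRNAs tested, 17 had positive and 23 negative values. Their median log2 fold change was −0.14 against −0.05 for all miRNAs tested. The called one, miR-424-3p, rose from 299 ± 34.2 to 1074 ± 278 (SD, n = 3 each), a log2 fold change of 1.82 (limma adjusted p = 0.0124), and the most abundant, miR-98-5p and miR-224-5p, had log2 fold changes of 0.24 and −0.42 (limma adjusted p = 0.836 and 0.502). Without SMARCA4 replicate 2 these were −0.49 and −0.14, neither past the test. The groups did not overlap for 14 of the 40, beside 31.1% of all miRNAs tested.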

How the data were processed

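The deposited values are a normalized signal, described as TMM-normalized in the table's name, in which each library's read counts carry a single factor. Per the labels' protocols, libraries came from total RNA with a TruSeq small RNA kit, which ligates adapters to RNA ends. Per the submitters' processing notes, bcl2fastq 2.18.0.12 and GRCh38 were used; trimmer, aligner, counter and miRNA annotation: not given in the sources used here. Every value was a whole multiple of its library's smallest step (tolerance 1e-06), so read counts were recovered for 100% of values. limma 3.58.1 (R 4.3.3, mean-variance trend, group as the only term) was run on log2(value + 1) over miRNAs with a mean of at least 1, which understates changes of scarce miRNAs, and on log2 ratios of 3p to 5p arms with the trend on the mean level of both. p-values were adjusted by Benjamini and Hochberg, threshold 0.05. Single ratios had exact two-sided permutation tests. Alternatives included edgeR 4.0.16 (quasi-likelihood) and DESeq2 1.42.0 on recovered reads. The fits were also run on simulated counts, with the same extra spread for every miRNA and no library apart in composition. That run does not cover a library like SMARCA4 replicate 2. Named miRNAs were the 4 arms, for each the 3 most and 1 least like, seed sharers, the 2 most abundant and any called member of the lists, of which 1 is not reported here, and the 3 other called pairs with the largest change; miR-30b-5p was named after its value was seen. Members and lists were chosen with earlier results of these data known. Of the 787 names, 689 matched a RefSeq mature sequence. No 2 libraries agreed within sampling noise.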

Additional observations from a re-analysis of the deposited data

How the results depend on the processing

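No alternative turned the direction of any of the 4 arms, of either 3p/5p ratio or of the miR-222-3p/miR-221-3p ratio. Without the trend, miR-222-3p (log2 fold change −1.57, adjusted p = 0.0695) and the miR-221 3p/5p ratio (change 3.06, adjusted p = 0.0525) missed the threshold. miR-221-3p passed with array weights (0.82) and DESeq2 (1.12), and miR-221-5p with array weights (−2.03), the replicate block (−2.0) and DESeq2 (−2.08). With 1 library left out, log2 fold changes ran from −1.65 to −1.51 for miR-222-3p, −2.52 to −2.27 for miR-222-5p, 0.71 to 1.25 for miR-221-3p and −2.43 to −1.64 for miR-221-5p. The miR-221 3p/5p change then ran from 2.44 to 3.49, and that of miR-222-5p/miR-221-5p from −0.62 to 0.017, reversed without empty vector replicate 2. The summed 3p level changed by −0.39, and by −0.76 with quantile normalization. miRNAs called numbered 9 by limma (144 at unadjusted p under 0.05), 8 by edgeR, 44 by DESeq2 (212 adjusted p-values undefined), 90 with array weights and 0 to 41 with 1 library left out; the counts of 0, without empty vector replicate 1 and SMARCA4 replicate 1, had 103 and 119 at unadjusted p under 0.05. Arm pairs called numbered 11, 20 with a mean of at least 10 required, 5 without the trend, 21 with array weights, 21 with the replicate block and 1 to 12 with 1 library left out. Rescaling to the same total moved the median over all miRNAs by −0.26. Same-numbered libraries shared a number in their titles, and the correlations of their deviations were 0.073, 0.088 and 0.014. Every library but SMARCA4 replicate 3, which was closest to empty vector replicate 1, correlated best with its own number. These correlations cannot show whether the libraries were paired. The replicate block moved the count of calls from 9 to 13. The causes were not tested. Depth limits miR-222-5p most, at 18 to 113 reads in SMARCA4 libraries.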
